A study of Mus musculus with 4 samples.

Results

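The genes described here repair broken, crosslinked or mispaired DNA or signal that damage: homologous recombination, Fanconi anaemia and mismatch repair genes with the checkpoint kinases that act beside them. The list names 37 genes, and 35 of them were measured among the 21335 genes that the platform annotation names. For each gene the feature (a set of probes summarised to 1 value) that was brightest on average was taken, whatever its change. The genes themselves were listed with earlier results of these data known, so their shares beside all features are not free of selection. Xrcc2 and Rbbp8 were not analysed here. MC3T3-E1, a mouse calvarial pre-osteoblast line of C57BL/6 origin, was grown with 1% fetal bovine serum and received proliferation medium alone (control) or the same medium with citalopram, a selective serotonin reuptake inhibitor (SSRI), at 0.0001 mol per litre (100 µM). RNA was taken at day 3 and day 7. Each of the 4 groups (control and citalopram, at either day) is 1 array, so a difference between a pair of arrays has no replicate error and carries no p-value. Each condition had 3 wells of a 6-well plate, and the sources used here do not say if RNA of several wells went onto 1 array. The labels name neither a subclone of the line nor a second culture experiment, so any spread between arrays may be technical.

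Homologous recombination copies the sister chromatid to mend a double-strand break: ends are cut back to single strands, BRCA1 and BRCA2 help to prepare those strands, and a strand then invades the intact copy. The Fanconi pathway unhooks crosslinks between strands at stalled forks by placing ubiquitin on the FANCD2-FANCI clamp, and then hands the break to recombination. Mismatch repair removes copying errors. In most cell types many of these genes are transcribed mainly in S and G2 phase, when a sister chromatid is present, and the cell cycle regulators of the E2F family are known to act on several of their promoters.

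The deposited values are log2 expression values. All 35 genes lay above the floor on at least 1 array, the floor being the 40th percentile of gene features on that array (5.97 to 6.04). The median of all features was 6.5 on both day 3 arrays, 6.60 in control at day 7 and 6.66 with citalopram at day 7. Of the osteoblast markers, 7 of the 8 measured were above the floor, among them Col1a1, the type I collagen gene, whereas Ibsp, bone sialoprotein, was below it on every array. Of the markers of other cell types that were measured, 4 of 8 for chondrocytes, 2 of 6 for adipocytes, 4 of 7 for myogenic cells, 3 of 6 for macrophages and 1 of 7 for endothelium were above it. The summed log2 level of the measured genes of a list spanned 80.5 to 82.0 over the 4 arrays for osteoblasts. For chondrocytes it spanned 53.7 to 54.2, for adipocytes 33.8 to 34.5 and for myogenic cells 44.5 to 45.8. The span was 39.5 to 40.6 for macrophages and 38.7 to 39.1 for endothelium. The endothelial genes Pecam1, Cdh5 and Kdr, the macrophage genes Ptprc and Csf1r and the adipocyte gene Adipoq were below the floor on every array. Those above it on at least 1 array were Lyz2, Cd68 and Cd14 for macrophages, Pparg and Cebpa for adipocytes and Vwf for endothelium. For myogenic cells they were Myod1, Des, Acta1 and Tnnt3, and for chondrocytes Sox9, Col2a1, Col9a1 and Col10a1.

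The promoters of many, though not all, of these genes hold motifs that cell cycle factors are known to bind. RefSeq windows of 300 bases on GRCm38.p6 (250 bases before the annotated start and 50 from it) were given for 30 of the 35 genes, in 32 windows. The search covered both strands for the E2F motif (TTGGCGC or TTCGCGC), the cell cycle homology region or CHR (TTTGAA or TTCGAA) and the CCAAT box (CCAAT). The E2F motif and the CCAAT box overlap where ATTGG runs into GCGC. The E2F motif stood in 8 of the 32 windows (25%), against 3.89% of all 32851 windows and 6.48% of those of genes above the floor. The CCAAT box stood in 20 windows (62.5%, against 37.4% of all windows and 38.2% of those above the floor), and the CHR in 3 (9.38%, against 19.2% and 14.7%). In the windows of the mitosis list the CHR stood in 79.3% and the E2F motif in 20.7%, and in those of the DNA replication list the E2F motif stood in 39.4%. The windows of Brca2, Fancg, Fancl, Fanci, Chek1 and Ung held none of these motifs. A match describes letters and is not evidence of binding.

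First come the windows of 4 genes whose mean citalopram difference was among the lowest. They are Fancb (chrX:164980342-164980641, plus strand), Rad54l (chr4:116123641-116123940, minus strand), Slf1 (chr13:77135419-77135718, minus strand) and Eme1 (chr11:94653694-94653993, minus strand). Capitals mark motif letters on either strand: 1 CCAAT box in Fancb and in Rad54l, 2 in Slf1, and a CHR in Eme1.
Fancb: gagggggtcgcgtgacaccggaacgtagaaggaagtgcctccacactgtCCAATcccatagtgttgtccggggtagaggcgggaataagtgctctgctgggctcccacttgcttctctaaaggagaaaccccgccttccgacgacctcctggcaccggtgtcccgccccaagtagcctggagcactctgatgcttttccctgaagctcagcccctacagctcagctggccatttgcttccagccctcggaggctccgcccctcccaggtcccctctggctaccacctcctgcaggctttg
Rad54l: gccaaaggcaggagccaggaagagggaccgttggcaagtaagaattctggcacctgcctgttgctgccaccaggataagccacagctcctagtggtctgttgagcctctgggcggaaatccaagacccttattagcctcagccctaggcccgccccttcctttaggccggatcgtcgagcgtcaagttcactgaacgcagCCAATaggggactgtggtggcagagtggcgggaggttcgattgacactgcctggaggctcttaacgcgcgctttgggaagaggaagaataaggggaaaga
Slf1: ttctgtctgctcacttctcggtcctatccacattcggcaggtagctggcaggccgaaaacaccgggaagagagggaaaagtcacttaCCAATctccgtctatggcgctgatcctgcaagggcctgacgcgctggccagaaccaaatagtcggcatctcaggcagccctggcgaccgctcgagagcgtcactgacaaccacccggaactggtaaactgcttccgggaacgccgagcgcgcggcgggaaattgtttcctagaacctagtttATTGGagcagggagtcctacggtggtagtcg
Eme1: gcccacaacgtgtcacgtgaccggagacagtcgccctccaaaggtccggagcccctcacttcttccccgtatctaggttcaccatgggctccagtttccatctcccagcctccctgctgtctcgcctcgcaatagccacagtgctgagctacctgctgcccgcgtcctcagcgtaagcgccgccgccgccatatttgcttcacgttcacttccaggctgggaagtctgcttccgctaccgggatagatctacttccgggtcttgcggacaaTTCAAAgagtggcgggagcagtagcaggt
None of these 4 windows holds the E2F letters searched.

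Next come 2 windows with the E2F motif, chosen after their values were seen: Brca1 (chr11:101551906-101552205, minus strand) and Topbp1 (chr9:103305077-103305376, plus strand). Capitals mark a CCAAT box and an E2F motif in Brca1, and 2 overlapping E2F motifs on opposite strands in Topbp1.
Brca1: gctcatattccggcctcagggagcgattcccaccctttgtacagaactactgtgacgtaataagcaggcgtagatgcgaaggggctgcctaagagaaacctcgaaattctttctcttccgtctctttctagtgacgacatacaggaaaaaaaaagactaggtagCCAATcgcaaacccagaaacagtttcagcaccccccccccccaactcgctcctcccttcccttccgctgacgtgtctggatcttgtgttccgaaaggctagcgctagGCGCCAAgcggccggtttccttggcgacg
Topbp1: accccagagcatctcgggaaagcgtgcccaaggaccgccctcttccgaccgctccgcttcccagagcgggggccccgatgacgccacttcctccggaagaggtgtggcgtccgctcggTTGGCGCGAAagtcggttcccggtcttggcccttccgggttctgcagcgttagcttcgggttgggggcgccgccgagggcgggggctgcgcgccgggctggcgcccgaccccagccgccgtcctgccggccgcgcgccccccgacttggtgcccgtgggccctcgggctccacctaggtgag
The Brca1 match starts 22 bases into the transcribed part of its window.

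Last come the 2 genes with a mean citalopram difference nearest to 0, Mre11a (chr9:14784404-14784703, plus strand) and Atm (chr9:53536622-53536921, minus strand). Capitals mark CCAAT boxes, 2 in Mre11a and 1 in Atm.
Mre11a: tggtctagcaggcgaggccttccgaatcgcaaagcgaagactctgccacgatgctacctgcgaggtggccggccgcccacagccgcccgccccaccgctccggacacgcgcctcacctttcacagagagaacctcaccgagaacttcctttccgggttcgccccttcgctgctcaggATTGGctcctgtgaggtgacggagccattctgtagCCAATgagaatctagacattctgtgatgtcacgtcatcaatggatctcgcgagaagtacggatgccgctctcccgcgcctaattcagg
Atm: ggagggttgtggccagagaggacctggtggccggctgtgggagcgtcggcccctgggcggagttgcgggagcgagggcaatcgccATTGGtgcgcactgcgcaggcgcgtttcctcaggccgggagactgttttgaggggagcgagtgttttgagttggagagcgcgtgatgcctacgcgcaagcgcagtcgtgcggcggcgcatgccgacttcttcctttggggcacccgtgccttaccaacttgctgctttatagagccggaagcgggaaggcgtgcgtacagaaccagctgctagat
The 7 genes with an E2F motif had a median log2 difference between citalopram and control of -0.23 at day 3 and -0.28 at day 7, and the 23 with a window but without it -0.19 and -0.25. At day 3, 5 of the 7 and 19 of the 23 were lower with citalopram. At day 7, 7 of the 7 and 18 of the 23 were. For the 3 genes with a CHR the medians were -0.17 and -0.34, against -0.21 and -0.25 for the 27 without, and for the 19 with a CCAAT box -0.23 and -0.24, against -0.17 and -0.28 for the 11 without. Differences between genes with and without a motif were not tested.

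Most of the repair genes were slightly lower with citalopram on both days. At day 3, 27 of 35 were lower than control, where 42.3% of all gene features above the floor were, and the median log2 difference was -0.19 (1.14-fold), against 0.03 over all. At day 7, 28 of 35 were lower (48.6% of all), with a median of -0.25 (1.19-fold) against 0.01 over all. The differences were small: 1 gene at each day was at least 1.5-fold lower, Slf1 at day 3 (0.243% of all features passed) and Fancb at day 7 (0.916%), and none was 1.5-fold higher (0.485% and 0.551%). At 1.2-fold, a threshold added after the data were seen, 9 genes were lower at day 3 (25.7% of members, 4.81% of all features) and 17 at day 7 (48.6% and 8.93%), and none was higher (8.93% and 9.8% of all).

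**Figure D1:**
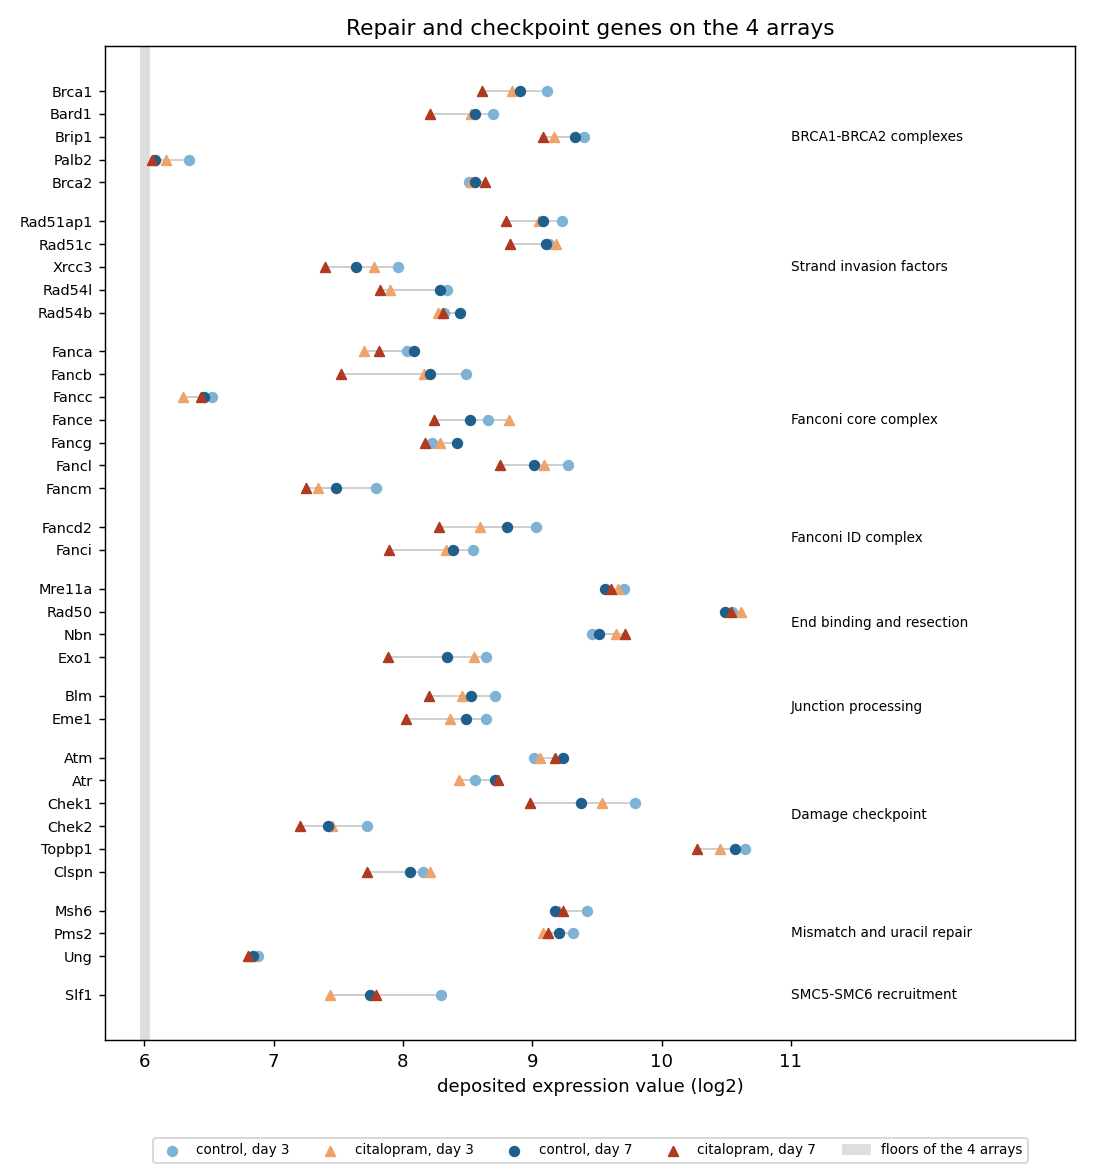
Deposited log2 expression value (horizontal axis) of each of the 35 genes on the 4 arrays, 1 point per array, grouped by role; the grey band spans the 4 floors (5.97 to 6.04). Citalopram at day 7 is the lowest point for 23 genes and control at day 3 the highest for 24.

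Across the 4 arrays, 23 genes were lowest with citalopram at day 7 (32.1% of all features had that order) and 24 were highest in control at day 3 (22.4%). For 19 genes both held (11.5%). RNA came from whole cultures, so fewer cells that express a gene and less of its RNA per cell cannot be told apart.

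Of the 5 BRCA complex genes among the members, 4 were lower with citalopram on both days (22.1% of all features) and Brca2 was not. Genes of another BRCA1 complex, counted below with the other recombination genes, did not share this. Uimc1 stood at -0.02 and 0.16, Abraxas1 at -0.04 and 0.20 and Brcc3 at 0.03 and 0.11. Babam1 was at 0.11 and -0.26, and Babam2 at 0.18 and 0.20. Brca1, a ubiquitin ligase that prepares broken ends for recombination, had values of 9.12 and 8.85 (control, then citalopram) at day 3, and 8.90 and 8.61 at day 7. Its differences of -0.27 and -0.29 were nearly alike on the 2 days, and both citalopram arrays lay below both controls. Bard1, its obligate partner, read 8.70 and 8.53 at day 3 and 8.55 and 8.21 at day 7, and only the last array stood clearly apart. The other 2 features of Bard1 gave 0.06 and -0.35 at day 3 and -0.28 and -0.24 at day 7, so its day 3 difference depends on the feature. Brip1, a helicase that binds BRCA1, differed by -0.23 and -0.25. Palb2, which bridges BRCA1 to BRCA2, lay near the floor (6.06 to 6.35) with differences of -0.17 and -0.03. Brca2, which acts at single-stranded DNA before strand invasion, read 8.51 and 8.53 at day 3 and 8.56 and 8.63 at day 7, so all 4 arrays lay close together.

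Of the 5 measured members that act in strand invasion, all were lower with citalopram at day 7 (48.6% of all features) and 4 at day 3 (42.3%). Rad54l, a motor protein that drives strand invasion, read 8.34 (control) and 7.90 (citalopram) at day 3, and 8.29 and 7.83 at day 7. The citalopram arrays were 1.36-fold and 1.38-fold lower, and the 2 controls differed by only 0.05. Its relative Rad54b stood at -0.05 and -0.13. Xrcc3, which acts beside RAD51C, differed by -0.18 and -0.24 and Rad51ap1, which stimulates strand pairing, by -0.18 and -0.29. Rad51c, the partner of Xrcc3, read 9.13 and 9.19 at day 3 and 9.11 and 8.83 at day 7, so that citalopram at day 7 alone was low.

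The Fanconi core complex places ubiquitin on the FANCD2-FANCI clamp. Of its 7 genes among the 35, all were lower with citalopram at day 7 (48.6% of all features) and 5 at day 3 (42.3%). Further core genes are counted below with the other Fanconi genes and did not all go this way. Fancf stood at 0.36 and -0.17, Faap100 at -0.01 and 0.11, Faap20 at -0.17 and -0.18 and Faap24 at -0.29 and -0.42. Fancb, a scaffold subunit beside the ligase, read 8.48 and 8.16 at day 3 and 8.21 and 7.52 at day 7. It was 1.25-fold and then 1.61-fold lower with citalopram, the largest day 7 difference of the 35 genes. Fanca differed by -0.33 and -0.27, Fancl, the ubiquitin ligase subunit, by -0.19 and -0.26, and Fancc by -0.23 and -0.02. Fancm, a DNA translocase that anchors the complex, read 7.79 and 7.35 at day 3 and 7.48 and 7.25 at day 7, with the first control the only high array. Fance went the other way at day 3 (8.66 and 8.82) and was lower at day 7 (8.52 and 8.24), and so did Fancg (0.06 and -0.25).

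Both clamp genes were lower on both days (22.1% of all features). Fancd2 read 9.03 (control) and 8.60 (citalopram) at day 3, and 8.80 and 8.28 at day 7, which is 1.35-fold and 1.44-fold lower. Fanci read 8.54 and 8.33, then 8.38 and 7.89, with its lowest value on citalopram at day 7. For Fancd2 both citalopram values lay below both controls, and the same holds for Fanci.

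Genes of the complex that first binds a break did not share this pattern. Mre11a, a nuclease, stood at -0.05 and 0.05, and Rad50, the ATPase that tethers ends, at 0.07 and 0.05. Nbn, the third subunit, read 9.46 and 9.65 at day 3 and 9.52 and 9.72 at day 7, the highest citalopram differences of the 35 genes (0.18 and 0.20). Its second feature, dimmer, gave -0.13 and 0.03. Exo1, an exonuclease of long-range resection and of mismatch repair, read 8.64 and 8.55 at day 3 and 8.34 and 7.88 at day 7, so the arrays separated by citalopram chiefly at day 7 (-0.46, against -0.09). Downstream, Blm, a helicase that dissolves joined chromatids, differed by -0.26 and -0.32. Eme1, partner of the MUS81 nuclease that cuts joints, read 8.64 and 8.37, then 8.49 and 8.02, and was 1.38-fold lower at day 7.

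Of the 6 checkpoint genes among the members, 4 were lower with citalopram at day 3 (42.3% of all features) and 5 at day 7 (48.6%). The apical kinases Atm (0.05 and -0.06) and Atr (-0.13 and 0.02) were close to control. Chek1, the effector kinase activated by ATR, read 9.79 and 9.54 at day 3 and 9.38 and 8.98 at day 7, lower with citalopram and lower at day 7. Chek2, the effector activated by ATM, differed by -0.27 and -0.21. Topbp1, which activates ATR, differed by -0.19 and -0.29. Clspn, the adaptor between ATR and CHEK1, read 8.15 and 8.21, then 8.06 and 7.73, with a low value on the last array alone.

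Mismatch and uracil repair genes showed little at day 7. Msh6, which recognises mismatches, read 9.42 and 9.21 at day 3 and 9.17 and 9.24 at day 7, so its control at day 3 was the high array. Pms2, the endonuclease subunit that nicks the new strand, differed by -0.23 and -0.09. Ung, which removes uracil from DNA in base excision repair, lay between 6.80 and 6.88 on all 4 arrays.

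Slf1, which links the ubiquitin ligase RAD18 to the SMC5-SMC6 complex at damaged DNA, had the largest single difference. It read 8.29 (control) and 7.44 (citalopram) at day 3, and 7.75 and 7.79 at day 7. Citalopram was 1.81-fold lower at day 3, and the arrays of day 7 lay between the 2 values of day 3. The second feature of Slf1 gave 7.14 and 6.78, then 6.94 and 7.20, that is -0.36 and 0.27, smaller at day 3 and of the same signs.

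**Figure D2:**
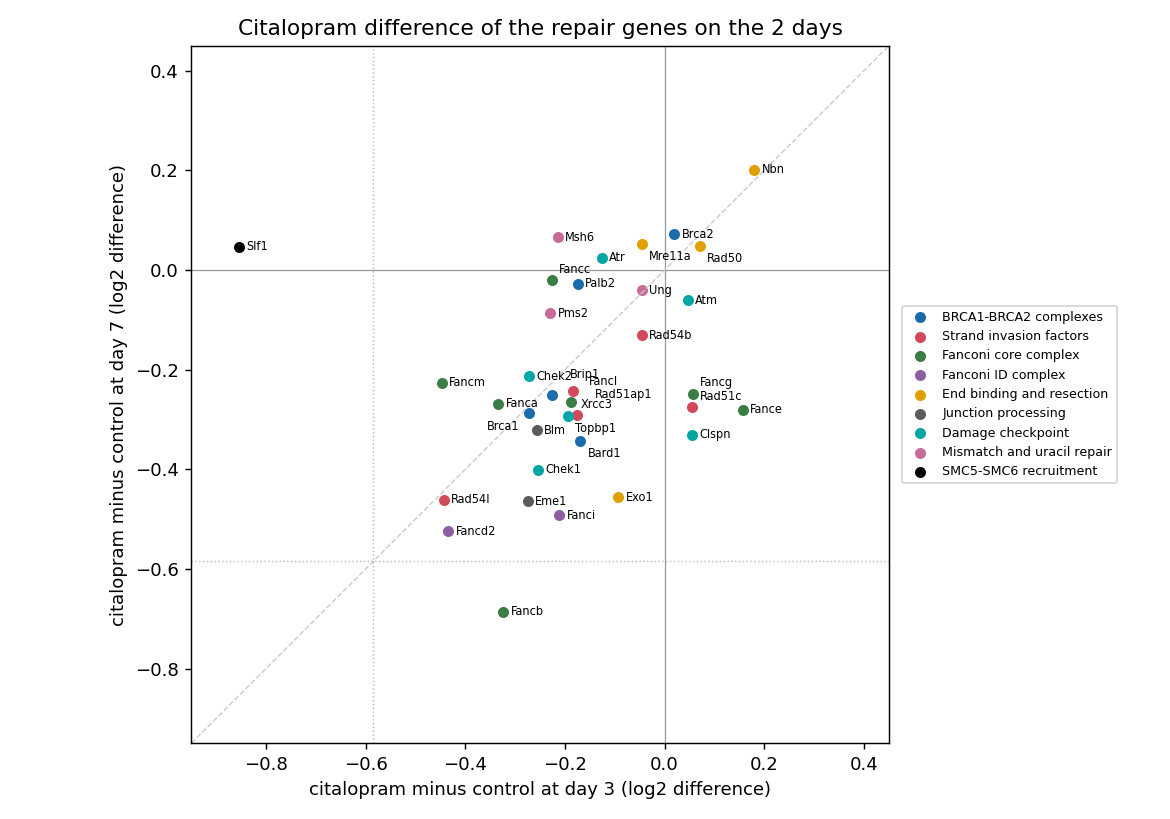
Log2 difference between citalopram and control at day 3 (horizontal) and at day 7 (vertical) for the 35 genes, coloured by role; the dashed line marks equal differences and the dotted lines 1.5-fold lower. Of the 35 points, 23 lie below 0 on both axes, Nbn is highest on both, and Slf1 lies far left near 0 on the vertical axis.

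The pairs of arrays of the 2 days share no array, so each day is a separate reading. In 23 of 35 genes citalopram was lower on both days (22.1% of all features) and in 3 it was higher on both (Brca2, Rad50 and Nbn; 30.8% of all). Rad51c, Fance, Fancg, Atm and Clspn lay above control at day 3 and below it at day 7 (5 of 35, against 27% of all), and Mre11a, Atr, Msh6 and Slf1 the reverse (4 of 35, against 20.1%). Brca1, Rad54l, Fanca, Fancb, Fancd2 and Eme1 were at least 1.2-fold lower on both (6 of 35, against 1.19% of all). A limma fit of 12586 gene features, with 1 term for citalopram and 1 for day, called 0 of the 35 genes for citalopram after Benjamini-Hochberg adjustment, and 0 of all features. At an unadjusted p under 0.05, limma had 14 members lower and none higher, against 3.6% and 5.45% of all features. Without the term for day the count of lower members was 3. The smallest adjusted p among members was that of Fancd2 (log2 change over both days -0.48, SE 0.10, adjusted p 0.31; 0.0267 to 1.00 over the alternatives). Rad54l followed (-0.45, SE 0.10, adjusted p 0.311; 0.0336 to 1.00), then Fancb (-0.50, SE 0.12, adjusted p 0.32; 0.0297 to 1.00). The call depends on the scaling: after quantile normalization of the arrays limma called these 3 genes, all lower, and after cyclic loess or median centring none. With 1 residual degree of freedom per gene, the error of this fit is the disagreement of the citalopram difference between days, moderated across genes.

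The citalopram difference was more negative at day 7 than at day 3 for 22 of 35 genes (54.7% of all features). It moved down most for Fance (-0.44), Clspn (-0.39) and Exo1 (-0.36), and up most for Slf1 (0.90), Msh6 (0.28) and Fancm (0.22). In 6 of 35 genes the difference was of opposite sign on the 2 days and at least 1.2-fold apart, where 21.1% of all features were. With 1 array a group these shifts cannot be tested.

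Untreated cells also had lower repair gene levels at day 7 than at day 3, in 28 of 35 genes (52.2% of all features), with a median of -0.14 against -0.01 over all. With citalopram, 25 of 35 were lower at day 7 (55.5% of all), with a median of -0.12 against -0.03, and 24 were lower in both treatments (36.3% of all). Each of these comparisons shares its arrays with the citalopram comparisons above. None of the 35 genes was 1.5-fold lower at day 7 in control (1.12% of all), and 2 were with citalopram, Fancb (-0.64) and Exo1 (-0.67), where 2.77% of all were. None was 1.5-fold higher in either treatment (1.23% and 2.09% of all). At 1.2-fold, 7 genes were lower in control (11.4% of all) and 12 with citalopram (18.1%). At that threshold none was higher in control (9.31% of all), and Atr and Slf1 were with citalopram (2 of 35, against 12.1%). Chek1 was lower at day 7 in both, by -0.41 in control and -0.56 with citalopram, followed in control by Xrcc3 (-0.32), Fancm (-0.31), Exo1 and Chek2 (both -0.30). The kinase genes Atm (0.22 and 0.12) and Atr (0.15 and 0.30) were higher at day 7 in both, and Slf1 was -0.54 in control and 0.36 with citalopram.

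**Figure D3:**
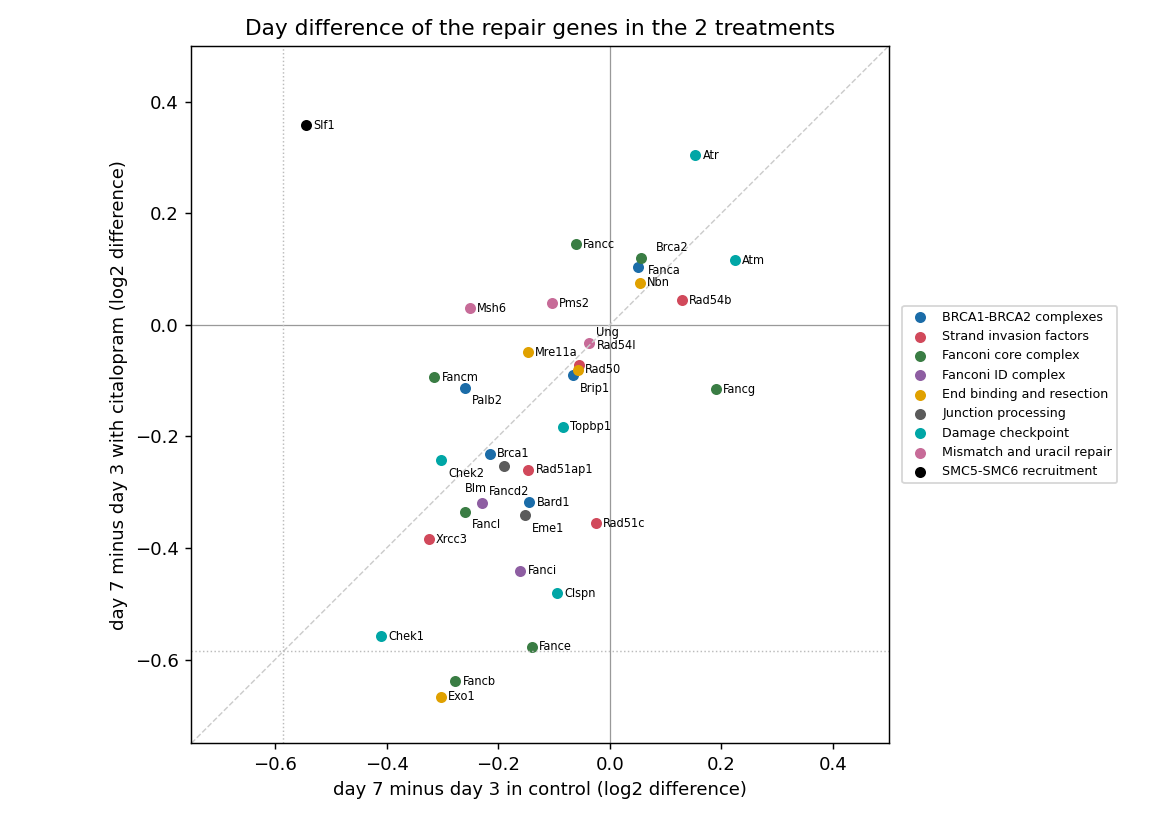
Log2 difference between day 7 and day 3 in control (horizontal) and with citalopram (vertical) for the 35 genes, coloured by role; the dashed line marks equal differences and the dotted lines 1.5-fold lower. Of the points, 24 lie below 0 on both axes; Exo1 and Fancb are the lowest vertically, and Slf1 stands alone at upper left.

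For the day effect over both treatments, limma called 0 of 35 genes on the deposited values (all features: 1.68% lower and 1.5% higher) and had 10 lower and none higher at an unadjusted p under 0.05 (11.9% and 8.49% of all). Chek1 was nearest (log2 change -0.48, SE 0.11, adjusted p 0.0501; 0.00171 to 0.202 over the alternatives). This count rests on the scaling, as 9 genes were called lower after quantile normalization, 4 after cyclic loess and 14 after median centring. Median centring also moved the median of all features between days, from -0.01 to -0.12 in control and from -0.03 to -0.19 with citalopram, and under it 33 of 35 genes in place of 25 were lower at day 7 with citalopram. It put 32 genes in place of 28 below control with citalopram at day 7.

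Other repair genes, from lists written with earlier results of these data known, had medians nearer to 0. The share of all gene features above the floor on at least 1 array that was lower with citalopram was 42.2% at day 3 and 49.1% at day 7. Among 38 other recombination genes above the floor, 27 were lower with citalopram at day 3 (median -0.05) and 26 at day 7 (median -0.09, or -0.17 after quantile normalization and -0.14 after median centring). At day 7 the lowest were Gen1, a nuclease that cuts Holliday junctions (-0.45), and Hrob, which loads the MCM8-MCM9 helicase (-0.44), and the highest was the helicase gene Wrn (0.25). Of 20 other Fanconi and crosslink genes 13 and 12 were lower (medians -0.02 and -0.07). Rad18, the partner of Slf1, was at 0.06 and -0.65, Faap24, which binds FANCM, at -0.29 and -0.42, and the nuclease gene Ercc4 at -0.02 and 0.41. Of 14 other checkpoint genes 11 and 10 were lower (medians -0.11 and -0.14), with Cdc25c, a phosphatase of mitotic entry, at -0.69 at day 7, Etaa1, an activator of ATR, at -0.49, and Atrip, the partner of ATR, at 0.21. Of 3 other mismatch repair genes 2 were lower on either day, and Msh3 was at -0.44 and -0.08, Mlh3 at 0.06 and -0.07 and Pms1 at -0.07 and 0.05. Their day 7 median was 0.045 with the floor at the 60th percentile, which leaves fewer genes. Limma called 0 genes of these 4 lists for citalopram. At an unadjusted p under 0.05, 7, 3, 3 and 0 were lower and none higher (3.6% and 5.45% of all features).

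End joining, nucleotide excision repair, base excision repair and translesion synthesis had medians between -0.13 and 0.07. The medians of the other recombination genes and of the other Fanconi genes lay within that range too. For end joining, 2 of 9 genes were lower at day 3 and 4 at day 7 (medians 0.05 and 0.05, the latter -0.049 after quantile normalization and -0.0065 after median centring), with Nhej1, a ligation factor, at -0.29, Poll, a gap-filling polymerase, at -0.19 and Prkdc, the DNA-dependent kinase, at 0.34 on day 7. Nucleotide excision repair had 6 of 17 lower on each day (medians 0.04 and 0.07), with Gtf2h4 (-0.35) and Cetn2 (-0.29) lowest and the nuclease gene Ercc5 (0.45) highest at day 7. Base excision repair had 10 and 12 of 15 lower (medians -0.04 and -0.13), with the glycosylase genes Neil3 (-0.47) and Mutyh (-0.38) lowest and the polymerase gene Polb (0.05) highest. Translesion synthesis had 5 and 3 of 8 lower (medians -0.08 and 0.07), with the polymerase genes Polq (-0.46) and Polh (-0.27) lowest and Rev3l (0.48) highest. Limma called none of these for citalopram. At an unadjusted p under 0.05 it had 1 gene lower, of base excision repair, and none higher (3.6% and 5.45% of all features). Differences between these lists and the 35 genes were not tested.

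**Figure D4:**
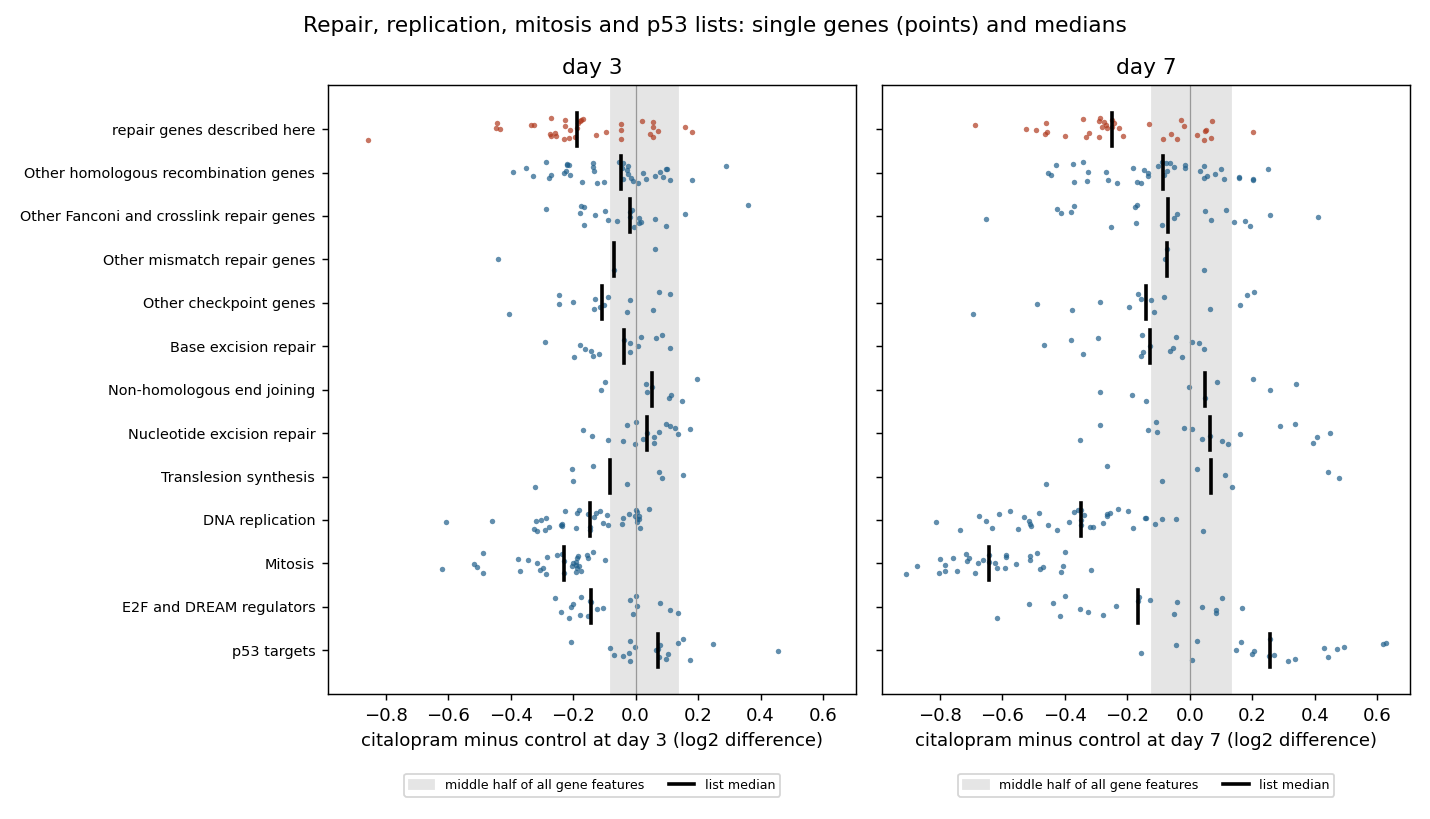
Log2 difference between citalopram and control at day 3 (left) and day 7 (right) for single genes above the floor (points; red, the 35 repair genes; blue, other lists) with each list's median (black bar) and the middle 50% of all gene features (grey). The median of the 35 genes is -0.19 and -0.25, beside -0.15 and -0.35 for DNA replication and -0.23 and -0.64 for mitosis.

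Genes of cycling cells were lower on the same arrays as the repair genes. Of 31 mitosis genes, 31 were lower with citalopram on each day (medians -0.23 and -0.64), and their summed log2 level was 332 in the control of day 3 against 324 with citalopram, and 333 against 313 at day 7. Of 37 DNA replication genes, 30 and 36 were lower (medians -0.15 and -0.35), with sums of 375 against 369 at day 3 and 374 against 360.1 at day 7. Lowest at day 7 were Rfc5 (-0.81) and Tk1 (-0.74) for replication and Pbk (-0.91) and Nuf2 (-0.87) for mitosis. The highest were Gmnn (0.04) and Tpx2 (-0.32). Limma called 0 genes of either list for citalopram. At an unadjusted p under 0.05 it had 31 mitosis and 18 replication genes lower and none higher (3.6% and 5.45% of all features). No gene of either list was at or below the floor on all arrays. Their part in the repair gene differences was not tested. Of the markers of cell types above the floor, 6 of 7 for osteoblasts were higher with citalopram at day 3 (median 0.20) and 5 of 7 at day 7 (median 0.04). Beside them, 7269 of all 12586 gene features above the floor were higher at day 3 and 6408 at day 7. At day 7, 49.1% of all were lower. Of the myogenic markers, 4 of 4 were lower at day 7 (median -0.19). The summed log2 level of all 7 measured myogenic genes, those below the floor included, was lowest on that citalopram array (44.5). At day 7, 3 of 3 macrophage markers were higher (median 0.15) and 3 of 4 chondrocyte markers were lower (median -0.14). The part of the cell type markers was not tested either. Between the 2 controls the lists stood side by side with other values: the median difference of day 7 from day 3 was 0.02 for mitosis, -0.03 for DNA replication and -0.14 for the 35 repair genes.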

How the data were processed

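RNA of MC3T3-E1 cells in 4 groups was read on Affymetrix arrays, 1 array per group, from 250 ng of total RNA. The authors deposited 1 log2 expression value per feature and array, 35556 in all. No label states the base; 2 was inferred from values that run from 3.90 to 15.5. The submitters' processing notes name Partek and no other tool, and how the authors normalized is not given in the sources here. Features were named from the platform annotation, in which 21789 carried 1 symbol, 1621 several and 12146 none. All 35 members had a feature of their own with 1 symbol, and 3 had more than 1 feature. Genes of the other lists were used only from features with 1 symbol. Differences of log2 values were taken without a test. A feature entered a comparison if the higher of its pair of values was at or above the floor of its array. The limma fit (version 3.58.1, R 4.3.3, lmFit and eBayes, two-sided, Benjamini-Hochberg over 12586 gene features) was tested on simulated data. Tables used Python 3.11.15 with pandas 2.3.3. All members may be named, with values in full for those lowest or highest in a comparison or past 1.5-fold, and from each other list the 2 lowest and the highest gene at day 7. The members, lists and motifs were chosen with earlier results of these data known. The number of arrays limits the precision.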

Additional observations from a re-analysis of the deposited data

Results flagged for a closer look

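In 6 of the 35 genes the citalopram difference changed sign between the days and shifted by at least 1.2-fold, which is no larger a share than over all gene features (17.1% against 21.1%). With 1 pair of arrays a day, the difference between days was not tested. Slf1 shifted by 0.90 on the log2 scale from day 3 to day 7 and Msh6 by 0.28, both from lower to higher. Fance shifted by -0.44, Clspn by -0.39, Rad51c by -0.33 and Fancg by -0.31, all from higher to lower.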

How the results depend on the processing

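Each group has 1 array and the labels give no replicate numbers, so arrays could be paired only by day. The limma fit reported did so through its term for day, comparing citalopram with control within each day. Without that term limma had 3 in place of 14 members lower at an unadjusted p under 0.05. The fit with the term for day has no residual degree of freedom once an array is left out. The medians and counts of the citalopram comparisons kept their direction under the 7 alternatives run, and the number at least 1.5-fold lower at day 7 was 3 in place of 1 after quantile normalization. Limma called 3 genes for citalopram after quantile normalization and 0 elsewhere. For day it called 9 after quantile normalization, 4 after cyclic loess, 14 after median centring, 3 with the floor at the 60th percentile, and 1 with the mean over the features of a gene and with a trend. For day 7 against day 3 in control, the number at least 1.5-fold lower was 1 after quantile normalization and after median centring; median centring gave a median of -0.25 and 14 genes at least 1.2-fold lower, and the higher floor 4. With citalopram the median was -0.26 after quantile normalization, -0.27 after median centring and -0.21 with the higher floor, with 6, 6 and 1 genes at least 1.5-fold lower, and 19 at least 1.2-fold lower after median centring. The higher floor leaves fewer genes (27 in the fit); the cause of the other changes was not tested. The end joining median at day 7 was -0.049 after quantile normalization and -0.0065 after median centring, and that of the other mismatch repair genes was 0.045 with the higher floor. Medians of other lists moved by over 1.5 times without turning, at their farthest as follows: at day 7 other Fanconi genes to -0.12 and other mismatch repair genes to -0.13 (median centring), nucleotide excision repair to 0.011 and translesion synthesis to 0.014 (median centring) or 0.11 (higher floor). At day 3 base excision repair moved to -0.13 and translesion synthesis to -0.14 (higher floor), nucleotide excision repair to 0.013 and other Fanconi genes to -0.037 and p53 targets to 0.042 (cyclic loess). Of 980 values of single genes under alternatives, 968 moved by less than a limit scaled up from the fit's prior standard deviation of 0.110. The changes of floor and the restriction to features with 1 symbol could not alter a member's value. The mean over features could alter only the 3 members with more than 1 feature. Many of the 968 were therefore unchanged by construction.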

Other observations

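Of 19 E2F and DREAM complex genes above the floor, which control the transcription of cell cycle and repair genes, 14 were lower with citalopram on each day (medians -0.14 and -0.17). Of all gene features above the floor, 42.2% were lower at day 3 and 49.1% at day 7. Foxm1, an activator of mitotic genes, stood at -0.21 and -0.62, and E2f8, a repressor of the E2F family, at -0.20 and -0.52, whereas Rb1, the retinoblastoma gene, stood at -0.10 and 0.17. Limma called 0 of them, with 4 lower at an unadjusted p under 0.05 (3.6% of all features). Targets of p53, the transcription factor that answers DNA damage, were higher in 11 of 19 at day 3 (median 0.07) and 17 of 19 at day 7 (median 0.26). Over all gene features above the floor, 7269 of 12586 were higher at day 3 and 6408 at day 7. The day 3 count of p53 targets lay near that share. At day 7 Gadd45a, a stress sensor gene, was at 0.63, Plk3 at -0.16 and Sesn1 at -0.04. Limma called 0 of these, with 3 higher at an unadjusted p under 0.05 (5.45% of all features).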
